A study of Rattus norvegicus with 18 samples.

Results

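Transcripts of cytotoxic and T lymphocytes were followed in rat kidney cortex: the granule genes Gzma, Gzmb, Prf1 and Nkg7, the natural killer receptor gene Klrd1, the CD3 genes Cd3d, Cd3e and Cd3g, and the coreceptor genes Cd8a and Cd4. They were chosen by symbol, and 9 of the 10 had a row among the 18420 genes of the deposited table; Klrd1 was not analysed here. Of these 9, 7 reached 10 normalised reads in 6 or more of the 18 libraries, as did 13988 genes in all, and passed the filter on low values. Gzmb and Cd3d were below it, and their tests come from a second fit without the filter, over 18366 genes.

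Polyadenylated RNA of kidney cortex was sequenced in 18 libraries from ZDF (Zucker diabetic fatty) rats, with 6 libraries per group. The RYGB group was ZDF fa/fa, diabetic and had undergone Roux-en-Y gastric bypass. The disease group was ZDF fa/fa and diabetic, with no bypass named in its labels. The healthy control group was lean, ZDF fa/+ and non-diabetic. The fa allele is a mutation of the leptin receptor gene, so disease and healthy control rats differed in genotype and in diabetes together. The labels name no sham operation, and give neither age nor sex. Nothing in them states that every library is a different rat, and the p-values therefore speak only for the spread among these libraries. The study asked how the renal transcriptome differs in the diabetic rat and after the bypass.

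Cytotoxic lymphocytes, which are natural killer (NK) cells and CD8 T cells, kill target cells by releasing granules. Perforin, encoded by Prf1, forms pores in the target membrane, and granzymes A and B (Gzma, Gzmb) are the serine proteases that enter through them; Nkg7 encodes a membrane protein of the granules. The CD3 chains carry the signal of the T cell receptor, and CD8 and CD4 are its coreceptors on cytotoxic and helper T cells. In the rat CD8 alpha is also found on NK cells and CD4 also on macrophages and monocytes, so Cd8a and Cd4 do not by themselves mark T cells. A kidney cortex holds few lymphocytes among its tubules, and in bulk RNA fewer cells of a type and less RNA per cell cannot be told apart.

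Values are normalised reads, the read count of a gene divided by 1 size factor per library. Reads in genes ranged from 12470525 to 42713246 in RYGB, 8157977 to 37142922 in disease and 8116638 to 34169198 in healthy control libraries. A floor of 3 reads therefore lay between 1.48 and 7.47 normalised reads, and the members other than Cd4 were near it in some libraries. Levels are compared between groups and never between genes, whose lengths differ. Of the 14 listed kidney cortex genes 10 were measured, and none was at 0 in every library of a group. Detection alone cannot tell cortex from other parts of the kidney, so the tissue is taken from the label. The 10 genes summed to between 223900 and 261100 normalised reads in RYGB, 151900 and 199600 in disease and 200300 and 233500 in healthy control. Every disease library thus lay below every other library in this sum. One library, healthy control replicate 4, was unlike the rest of its group. For 126 genes the other 5 healthy control libraries shared no part of their range with the 12 fa/fa libraries. On a scale from 0 (mean of those 5) to 1 (fa/fa mean), the median gene of replicate 4 lay at 0.942; the other healthy control libraries, each placed on such a scale of its own, lay between -0.102 and 0.196. It was also the shallowest library, and values without it are given wherever they change a call.

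In disease cortex the perforin and granzyme A transcripts were lower than in healthy control cortex, with means of 16.98 against 47.7 normalised reads for Prf1 and 6.06 against 22.8 for Gzma, whereas the CD3 transcripts had higher means that did not pass the test. After bypass Nkg7 was higher and Cd4 lower than in disease, and Prf1 was lower than in healthy control. In disease against healthy control 2 of the 7 tested members fell (Prf1 and Gzma) and none rose (2 were higher at an unadjusted p below 0.05, and edgeR and DESeq2 each called 1, Cd3e), where 1.03% of all tested genes were called lower and 0.579% higher. In RYGB against disease 1 member rose (Nkg7) and 1 fell (Cd4), where 1.84% of all tested genes were called higher and 2.1% lower. In RYGB against healthy control 1 fell (Prf1) and none rose (0 were higher at an unadjusted p below 0.05 or in edgeR or DESeq2), where 1.98% were called lower and 2.46% higher. Neither Gzmb nor Cd3d was called in the fit without the filter, in which 1.34%, 3.05% and 2.96% of genes were called in these 3 comparisons in turn. A call is an adjusted p below 0.05 in limma, adjusted by Benjamini-Hochberg over all tested genes. The median log2 fold change of the 7 members was 0.00 in disease against healthy control, 0.27 in RYGB against disease and -0.09 in RYGB against healthy control, beside medians of 0.00, 0.00 and -0.01 over all tested genes. The 3 comparisons share libraries, so their values stand side by side and do not support each other.

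**Figure D1:**
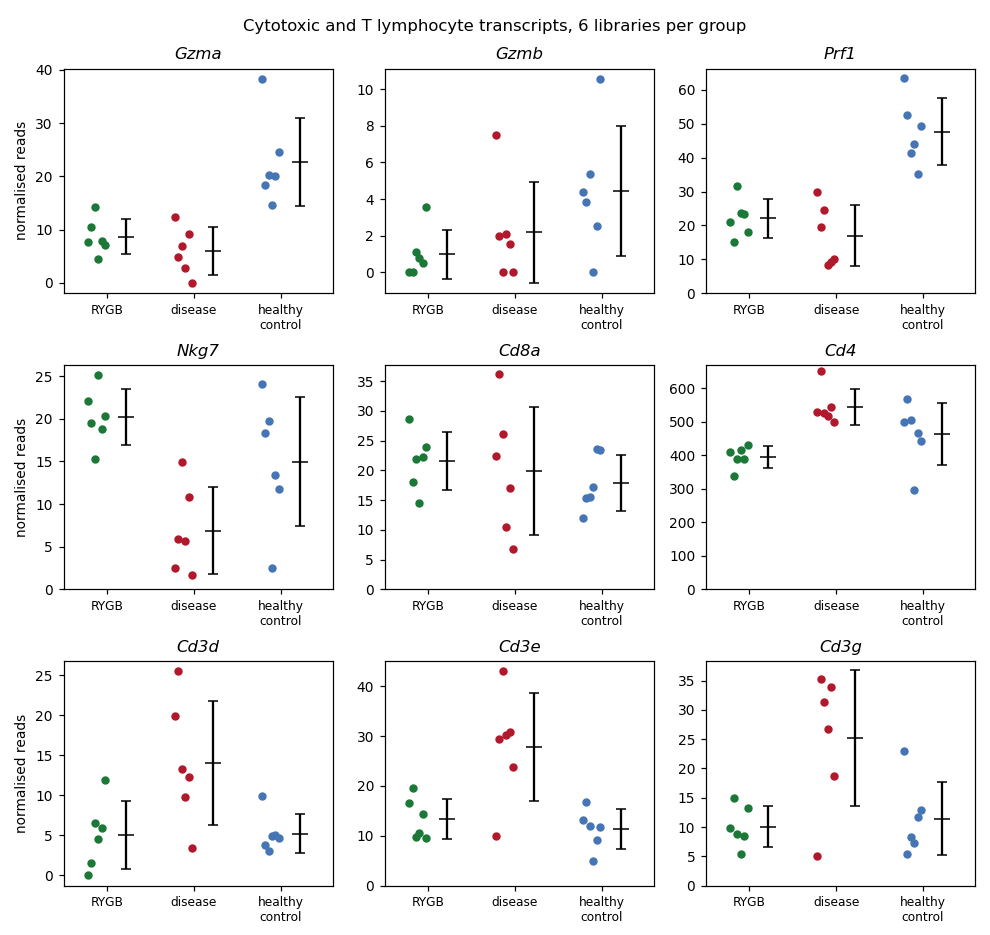
Normalised reads (vertical axes, from 0 or just below) of the 9 measured members in RYGB, disease and healthy control libraries (horizontal axes). Points are single libraries, and bars give the mean ± SD of 6; the healthy control points of Prf1 and Gzma lie above every fa/fa point, and the Cd4 points of RYGB lie below every disease point.

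The sequences before the start sites of the granule genes are shown because these genes share a use, the killing granule; Cd3e stands for the T cell receptor genes. They are RefSeq sequences of the GRCr8 assembly, the 250 bases before the annotated start, in the direction of the gene, with each copy of the RUNX core (TGTGGT, or ACCACA on the other strand) in capitals. RUNX factors are known regulators of T and NK cell genes.
Prf1, chr20:29788790-29789039, plus strand: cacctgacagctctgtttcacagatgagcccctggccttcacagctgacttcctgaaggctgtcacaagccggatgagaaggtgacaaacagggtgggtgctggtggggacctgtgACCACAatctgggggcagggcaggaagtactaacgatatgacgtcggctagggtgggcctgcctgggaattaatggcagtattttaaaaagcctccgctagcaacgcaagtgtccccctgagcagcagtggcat
Gzma, chr2:46485697-46485946, minus strand: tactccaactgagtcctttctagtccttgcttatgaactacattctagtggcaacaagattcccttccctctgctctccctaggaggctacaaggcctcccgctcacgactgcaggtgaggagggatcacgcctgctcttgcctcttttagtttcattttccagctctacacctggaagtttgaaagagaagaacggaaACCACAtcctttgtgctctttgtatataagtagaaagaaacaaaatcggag
Gzmb, chr15:34462470-34462719, minus strand: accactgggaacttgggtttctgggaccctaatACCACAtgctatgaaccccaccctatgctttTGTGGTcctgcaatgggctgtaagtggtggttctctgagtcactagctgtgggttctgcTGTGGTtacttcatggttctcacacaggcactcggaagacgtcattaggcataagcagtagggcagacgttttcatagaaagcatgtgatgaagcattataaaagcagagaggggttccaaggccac
Nkg7, chr1:102981247-102981496, plus strand: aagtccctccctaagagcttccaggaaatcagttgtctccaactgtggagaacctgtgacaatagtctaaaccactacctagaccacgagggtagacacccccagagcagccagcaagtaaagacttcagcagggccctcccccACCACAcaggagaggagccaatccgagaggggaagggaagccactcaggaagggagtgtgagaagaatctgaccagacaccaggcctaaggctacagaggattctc
Cd3e, chr8:54211771-54212020, minus strand: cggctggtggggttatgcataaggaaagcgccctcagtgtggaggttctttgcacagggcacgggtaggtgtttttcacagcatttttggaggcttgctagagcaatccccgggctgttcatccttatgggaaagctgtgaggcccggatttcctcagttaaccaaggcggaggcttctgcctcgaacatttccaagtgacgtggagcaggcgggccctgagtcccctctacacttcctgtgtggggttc
A window was found for 8 of the 10 members, all but Klrd1 and Cd4. The RUNX core was present in all 4 granule gene windows, with 3 copies in Gzmb and 1 in each of Prf1, Gzma and Nkg7, and in 0 of the 4 windows of Cd3d, Cd3e, Cd3g and Cd8a. It occurred in 14.5% of 33469 rat windows of this length. It was 1 of 6 motifs searched on both strands, chosen with the sequences and the levels in view, so the difference between the members' windows is a description. The ETS letters AGGAAGT were in the Prf1 (2 copies) and Cd3e windows and in 7.08% of all windows. The AP-1 letters TGANTCA were in the Gzmb window (6.34% of all windows), and the T-box letters GTGTGA in the Gzmb and Nkg7 windows (11.6%). The TATA letters TATAAA began 30 bases before the start of Gzmb (12.9% of all windows), and the cyclic AMP response letters TGACGTCA were in no member's window (1.59%). A match is not a bound site, and no match says only that these letters are not in these 250 bases.

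Perforin was the member with the lowest adjusted p between disease and healthy control cortex. In replicate order, Prf1 had 20.9, 15.01, 31.7, 23.6, 23.2 and 17.96 normalised reads in RYGB, 29.9, 19.6, 24.5, 8.43, 9.25 and 10.2 in disease, and 63.5, 52.7, 41.3, 44.2, 35.3 and 49.3 in healthy control libraries. Every healthy control library lay above every library of the other groups, and the RYGB libraries lay among the disease libraries except for replicate 3, the highest. Prf1 averaged 16.98 ± 9.05 in disease and 47.7 ± 9.86 in healthy control (SD, n = 6 each), and fell, with a log2 fold change of -1.57 ± 0.29 (SE; limma adjusted p = 0.00514). It remained called in all 28 alternative settings, with adjusted p between 3.1e-05 and 0.0195. RYGB averaged 22.1 ± 5.73 and was lower than healthy control, with a log2 fold change of -1.09 ± 0.29 (limma adjusted p = 0.0384). This second call was lost without healthy control replicate 1 (limma adjusted p = 0.103), 2 (0.0798), 3 (0.0604), 5 (0.0513) or 6 (0.0762), or RYGB replicate 1 (0.07), 2 (0.0817), 4 (0.0672), 5 (0.0695) or 6 (0.0895). Between RYGB and disease the difference did not pass (0.48 ± 0.29, limma adjusted p = 0.349).

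Granzyme A, a tryptase of NK and CD8 T cell granules, had the same order of levels as perforin in disease against healthy control. Gzma had 7.72, 10.5, 14.2, 4.57, 7.91 and 7.19 normalised reads in RYGB, 12.5, 4.90, 6.92, 2.81, 9.25 and 0 in disease, and 38.3, 18.3, 20.4, 14.7, 20.2 and 24.7 in healthy control libraries. The lowest healthy control library, replicate 4, lay above the highest fa/fa library, and disease replicate 6 held no Gzma read, at a floor of 5.09 normalised reads. RYGB libraries held 55 Gzma reads in all (exact Poisson 95% interval 41.4 to 71.6), disease libraries 33 (22.7 to 46.3) and healthy control libraries 144 (121.4 to 169.5); these intervals cover counting error only. Gzma fell in disease, with a log2 fold change of -2.08 ± 0.47 (limma adjusted p = 0.0261). Of the 9 libraries that reached 10 normalised reads 6 were healthy control, so Gzma passed the filter largely through the group where it was high; without the filter the adjusted p in limma was 0.0277. The call was lost with the compared groups fitted alone (limma adjusted p = 0.0717) and without healthy control replicate 1 (0.0677), 2 (0.0507), 3 (0.0626) or 6 (0.0663) or disease replicate 4 (0.0662). In RYGB, at 8.68 ± 3.30 against 22.8 ± 8.28 in healthy control, the log2 fold change was -1.30 ± 0.47 and did not pass (limma adjusted p = 0.101), although no library of one group overlapped the other. It did pass with RYGB and healthy control fitted alone (limma adjusted p = 0.0175), with a pseudocount of 5 (0.0396), without disease replicate 6 (0.0271), and on recovered whole reads in edgeR (0.028) and DESeq2 (0.00388). RYGB and disease differed by 0.78 ± 0.47, which did not pass (limma adjusted p = 0.356).

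Granzyme B, the granzyme that activates caspases in target cells, was close to the limit of detection. Gzmb summed to 6 reads in RYGB, 9 in disease and 30 in healthy control libraries, with 2, 2 and 1 libraries at 0. The lowest, median and highest libraries were 0, 0.628 and 3.59 normalised reads in RYGB, 0, 1.75 and 7.47 in disease, and 0, 4.10 and 10.6 in healthy control. The groups overlapped, most values were at or below the floor of 3 reads, and reads that fit several of the near-identical rat granzyme genes were not counted to any, so the level itself is uncertain. In the fit without the filter the log2 fold change was -0.85 ± 0.56 in disease against healthy control (limma adjusted p = 0.637), -0.49 ± 0.56 in RYGB against disease (limma adjusted p = 0.681) and -1.34 ± 0.56 in RYGB against healthy control (limma adjusted p = 0.169). Leaving out healthy control replicate 4 brought RYGB against healthy control past the threshold (-1.77 ± 0.51, limma adjusted p = 0.0403).

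Nkg7, the granule membrane gene, had its highest mean after bypass. It had 22.05, 19.5, 15.3, 25.1, 18.8 and 20.4 normalised reads in RYGB, 2.49, 5.88, 14.9, 5.62, 10.8 and 1.70 in disease, and 24.1, 18.3, 19.8, 2.45, 13.4 and 11.7 in healthy control libraries. Every RYGB library lay above every disease library, though RYGB replicate 3 only just above disease replicate 3, and the healthy control libraries spanned both. Nkg7 rose in RYGB to 20.2 ± 3.30, against 6.90 ± 5.07 in disease, with a log2 fold change of 1.68 ± 0.45 (limma adjusted p = 0.0421). The call was lost without healthy control replicate 2 (limma adjusted p = 0.0515), 5 (0.0525) or 6 (0.0542), without disease replicate 1 (0.106), 2 (0.0775), 4 (0.0617) or 6 (0.0892), and without RYGB replicate 1 (0.0869), 2 (0.0722), 4 (0.0949), 5 (0.0719) or 6 (0.0746). In disease against healthy control the log2 fold change of -1.05 ± 0.45 did not pass (limma adjusted p = 0.371). Healthy control replicate 4 held 1 Nkg7 read, and without this library the fold change was -1.45 ± 0.38 (limma adjusted p = 0.0499); without it and disease replicate 6 together it was -1.19 and did not pass (limma adjusted p = 0.052). RYGB and healthy control differed by 0.62 ± 0.45, which did not pass (limma adjusted p = 0.38).

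The CD3 genes, which encode the signalling chains of the T cell receptor, had their highest means in disease. Cd3e had 16.5, 19.5, 9.84, 10.7, 14.3 and 9.58 normalised reads in RYGB, 9.97, 29.4, 43.1, 30.2, 30.8 and 23.8 in disease, and 13.1, 16.8, 11.98, 4.91, 9.25 and 11.7 in healthy control libraries. In 5 of 6 disease libraries Cd3e lay above every library of the other groups, and disease replicate 1, the shallowest of its group, lay among them. The log2 fold change in disease against healthy control was 1.19 ± 0.32 and did not pass (limma adjusted p = 0.0684). It passed without disease replicate 1 (1.45 ± 0.28, limma adjusted p = 0.0115), with quantile normalisation (0.0368), and in edgeR (0.0201) and DESeq2 (0.00243) on whole reads. In RYGB against disease Cd3e differed by -0.94 ± 0.32, which did not pass (limma adjusted p = 0.107), but passed without disease replicate 1 (0.0331) and in edgeR (0.0274) and DESeq2 (0.00598). RYGB and healthy control, at 13.4 ± 4.07 and 11.3 ± 3.99, differed by 0.26 ± 0.32 (limma adjusted p = 0.62).

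Cd3g, the gamma chain gene next to Cd3d on the chromosome, also had its highest mean in disease. It had 9.92, 15.01, 8.74, 5.33, 8.41 and 13.2 normalised reads in RYGB, 4.98, 35.3, 31.4, 26.7, 33.9 and 18.7 in disease, and 23.0, 5.35, 8.38, 7.36, 11.8 and 12.9 in healthy control libraries. Disease replicate 1 was the lowest of all 18 libraries, with 2 reads, while the other 5 disease libraries lay above every RYGB library. The log2 fold change was 1.00 ± 0.41 in disease against healthy control (limma adjusted p = 0.338) and -1.09 ± 0.41 in RYGB against disease (limma adjusted p = 0.137), and neither passed. Without disease replicate 1 both passed, at 1.38 ± 0.33 (limma adjusted p = 0.038) and -1.47 ± 0.33 (limma adjusted p = 0.0225), and the second also passed in edgeR (0.0325) and DESeq2 (0.00722). RYGB against healthy control gave -0.09 ± 0.41 (limma adjusted p = 0.901), and this value changed sign without healthy control replicate 1 or without RYGB replicate 4.

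Cd3d, the delta chain gene, was below the filter on low values and also had its highest mean in disease. Its lowest, median and highest libraries were 0, 5.25 and 11.98 normalised reads in RYGB, 3.39, 12.8 and 25.5 in disease, and 2.99, 4.80 and 9.86 in healthy control. Disease replicate 1, low for Cd3e and Cd3g, was the second highest for Cd3d at 19.9 normalised reads, from 8 reads. In the fit without the filter the log2 fold change was 1.15 ± 0.51 in disease against healthy control (limma adjusted p = 0.409) and -1.51 ± 0.51 in RYGB against disease (limma adjusted p = 0.122). RYGB against healthy control gave -0.36 ± 0.51 (limma adjusted p = 0.71), with the opposite sign in edgeR, in DESeq2 and without RYGB replicate 1. The sources used here do not give whether the counting used the strand, so reads shared by neighbouring or overlapping genes on opposite strands cannot be separated.

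Cd8a, the coreceptor of cytotoxic T cells, was called in none of the 3 comparisons, in limma, edgeR or DESeq2, and no unadjusted p was below 0.05 in limma. The lowest, median and highest libraries were 14.5, 22.1 and 28.7 normalised reads in RYGB, 6.79, 19.7 and 36.3 in disease, and 12.1, 16.4 and 23.5 in healthy control. The disease libraries spanned the range of both other groups. The log2 fold change was 0.00 ± 0.32 in disease against healthy control (limma adjusted p = 0.999), a value whose sign depended on the setting, 0.27 ± 0.32 in RYGB against disease (limma adjusted p = 0.664) and 0.27 ± 0.32 in RYGB against healthy control (limma adjusted p = 0.605).

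Cd4, the coreceptor of helper T cells, was the most deeply covered member. It had 410.1, 339.3, 388.0, 417.5, 389.7 and 432.4 normalised reads in RYGB, 528.2, 652.6, 527.1, 517.2, 544.2 and 499.0 in disease, and 500.6, 568.5, 506.0, 296.8, 468.2 and 442.6 in healthy control libraries. Every RYGB library lay below every disease library, and below every healthy control library except replicate 4, the lowest of all. Cd4 fell in RYGB to 396.1 ± 32.6, against 544.7 ± 54.9 in disease, with a log2 fold change of -0.46 ± 0.13 (limma adjusted p = 0.0494). That p lay so near the threshold that leaving out any 1 library other than healthy control replicates 2 and 4 ended the call. Without a healthy control library the adjusted p in limma was then 0.0505 (replicate 1), 0.0586 (3), 0.0626 (5) or 0.0631 (6); without a disease library it was 0.0908 (1), 0.119 (2), 0.0544 (3), 0.0627 (4), 0.0553 (5) or 0.0599 (6); and without an RYGB library 0.0849 (1), 0.107 (2), 0.0577 (3), 0.083 (4), 0.0905 (5) or 0.0653 (6). Without healthy control replicate 4 it was 0.00833. No filter on low values (limma adjusted p = 0.0568) and a minimum of 50 (0.0526) also ended the call. Disease and healthy control differed by 0.25 ± 0.13 (limma adjusted p = 0.481). RYGB and healthy control differed by -0.20 ± 0.13 (limma adjusted p = 0.309), which passed without healthy control replicate 4 (-0.33 ± 0.10, limma adjusted p = 0.0409).

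**Figure D2:**
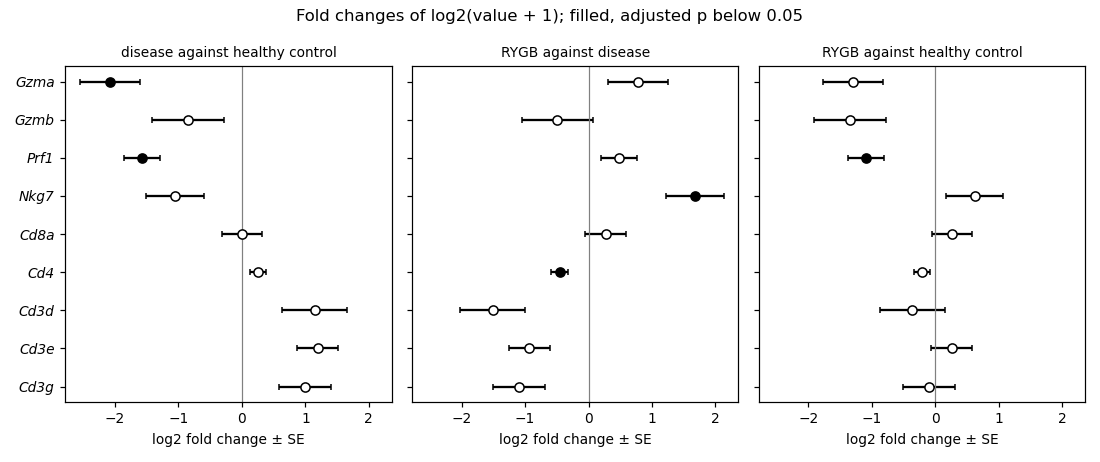
Log2 fold changes ± SE (horizontal axes) of the 9 measured members (vertical axis) in disease against healthy control, RYGB against disease and RYGB against healthy control, from limma on log2(value + 1). Filled points passed at an adjusted p below 0.05: Prf1 and Gzma in the first panel, Nkg7 and Cd4 in the second and Prf1 in the third. Gzmb and Cd3d come from the fit without the filter.

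The granule genes were also set against Cd3e and against Ptprc, which encodes the leukocyte antigen CD45, within each library. These ratios are descriptions with no test. Prf1 per Cd3e had a lowest, median and highest value of 0.769, 1.75 and 3.22 in RYGB, 0.279, 0.498 and 3 in disease, and 3.14, 4.01 and 9 in healthy control libraries. The disease libraries lay below every healthy control library, the closest being disease replicate 1, whose Cd3e was low, whereas RYGB replicate 3, at 3.22, lay above healthy control replicate 2, at 3.14. Prf1 per 100 normalised reads of Ptprc was 7.06, 7.93 and 9.48 in RYGB, 1.87, 3.26 and 7.85 in disease, and 10.5, 12.7 and 14.5 in healthy control, without overlap of the fa/fa and healthy control libraries. Gzma per Cd3e was 0.429, 0.545 and 1.44 in RYGB, 0, 0.164 and 1.25 in disease, and 1.09, 2.14 and 3 in healthy control. Disease replicate 1 and RYGB replicate 3 thus lay above healthy control replicate 2. Per 100 normalised reads of Ptprc, Gzma was 1.83, 2.87 and 5.6 in RYGB and 0, 1.6 and 2.65 in disease. In healthy control it was 4.75, 5.7 and 7.69, above every disease library but not above RYGB replicate 2. Nkg7 per 100 normalised reads of Ptprc was 4.39, 8.17 and 10.4 in RYGB, 0.312, 1.52 and 4.78 in disease, and 0.806, 4.46 and 5.00 in healthy control. Ptprc itself averaged 269.4 ± 58.4 in RYGB, 420.7 ± 117 in disease and 382.9 ± 68.4 in healthy control, and was called in none of the 3 comparisons in limma. In RYGB against disease its log2 fold change was -0.62 (limma adjusted p = 0.0605). It passed there in DESeq2 (adjusted p = 0.019), and in limma with quantile normalisation (0.0444) or without disease replicate 3 (0.0388) or 4 (0.0314) or RYGB replicate 3 (0.035). Against healthy control it passed with these groups alone (limma adjusted p = 0.0496) and without RYGB replicate 3 (0.0491). The ratios per Ptprc carry its lower RYGB mean as well.

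Of the other cytotoxic and NK cell genes, 12 were tested; none was called in disease against healthy control, and their median log2 fold change was 0.04. At an unadjusted p below 0.05 limma had 1 higher and 2 lower; edgeR called 0, and DESeq2 called 1 higher (Ctsw) and 1 lower (Xcl1). In RYGB against disease 2 rose and 1 fell, with a median of -0.27. Against healthy control 2 rose (Gzmm and Gzmk) and 1 fell (Cd244), with a median of -0.18. There limma had 2 higher and 4 lower at an unadjusted p below 0.05. Both edgeR and DESeq2 called Gzmm and Gzmk higher. edgeR called 3 lower (Xcl1, Cd244 and Klrb1c), and DESeq2 4 (also Tnfsf10). Klrb1c averaged 6.44 in RYGB, 7.695 in disease and 21.2 in healthy control, and Xcl1 8.37, 9.93 and 25.7. Gzmm (granzyme M) averaged 19.3 ± 3.15 normalised reads in RYGB, 7.10 ± 5.77 in disease and 4.04 ± 1.56 in healthy control. Every RYGB library was above every healthy control library for Gzmm, and 4 of 6 above every disease library. Gzmm reached 10 normalised reads in every RYGB library, in disease replicates 3 (10.65) and 5 (16.96) and in no healthy control library. It thus passed the filter largely through the group where it was high. Gzmk (granzyme K, found in memory T cells) averaged 15.3 ± 4.17 in RYGB, 6.61 ± 1.67 in disease and 6.16 ± 2.62 in healthy control, and every RYGB library was above all the others. Gzmk reached 10 normalised reads in all 6 RYGB libraries and in no other library, so it passed the filter only through the group where it was high, it was not tested once any RYGB library was left out, and it lends no support to the counts of this list. In the fit without the filter its adjusted p in limma was 0.0381 against disease and 0.0217 against healthy control. Against disease the log2 fold changes were 1.61 ± 0.39 for Gzmm (limma adjusted p = 0.0237) and 1.09 ± 0.29 for Gzmk (0.0383). Against healthy control they were 2.05 ± 0.39 for Gzmm (limma adjusted p = 0.00549) and 1.23 ± 0.29 for Gzmk (0.0226). The Gzmm call against disease was lost without disease replicate 1 (limma adjusted p = 0.0613) or RYGB replicate 5 (0.0559) or 6 (0.0527), and that of Gzmk without disease replicate 1 (0.0853), 2 (0.0532), 3 (0.0552) or 6 (0.071). Against healthy control Gzmk was lost without healthy control replicate 1 (limma adjusted p = 0.0664) or 6 (0.057). Cd244, a receptor of NK and CD8 T cells, fell in RYGB to 20.2 ± 1.86, against 40.8 ± 9.72 in disease and 47.6 ± 6.35 in healthy control, with no overlap. Its log2 fold changes were -0.95 ± 0.17 against disease (limma adjusted p = 0.00368) and -1.19 ± 0.17 against healthy control (limma adjusted p = 0.000768).

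Of the other T cell genes, 20 were tested. In disease against healthy control 16 of them had a positive log2 fold change, with a median of 0.32. This shift was not particular to T cell genes. Medians were also positive in the macrophage and monocyte (0.32, 11 of 14 positive), pan leukocyte (0.24, 11 of 12), B cell (0.22, 5 of 5) and neutrophil (1.63, 3 of 4) lists. They were negative in the dendritic cell (-0.14, 1 of 4 positive) and mast cell (-0.16, 0 of 1) lists. Of the 20 T cell genes 1 rose: Lat, an adaptor of T cell receptor signalling, at 0.93 ± 0.23 (limma adjusted p = 0.0499). At an unadjusted p below 0.05 limma had 7 higher and 1 lower. Both edgeR and DESeq2 called Lat and Cd247 higher, and DESeq2 called Cd7 lower. Cd247 averaged 18.5 ± 9.25 in disease and 8.1 ± 2.59 in healthy control (log2 fold change 1.00 ± 0.32, limma adjusted p = 0.158). The Lat call was lost without any 1 library other than healthy control replicate 4 and disease replicates 1 and 6, with limma adjusted p up to 0.147. It was also lost with same-numbered libraries of these groups as pairs (limma adjusted p = 0.111), with these groups fitted alone (0.135), without the filter (0.0669) and with a pseudocount of 0.5 (0.0513). In RYGB against disease 3 of the 20 had a positive value, with a median of -0.46. None was called in limma, where 9 were lower at an unadjusted p below 0.05, or in edgeR. DESeq2 called 2 lower (Lcp2 and Icos). Medians there were also negative in the pan leukocyte (-0.26, 3 of 12 positive), B cell (-0.26, 1 of 5), macrophage and monocyte (-0.13, 4 of 14), dendritic cell (-0.25, 1 of 4) and neutrophil (-0.92, 0 of 4) lists. The 1 mast cell marker was at 0.16. In RYGB against healthy control 2 of the 20 T cell genes fell, with a median of 0.02 over these genes. They were Cd96, a receptor of T and NK cells (13.3 ± 2.74 against 29.3 ± 7.59; log2 fold change -1.06 ± 0.22, limma adjusted p = 0.0115), and Cd7 (19.7 ± 7.14 against 57.0 ± 26.3; -1.38 ± 0.36, limma adjusted p = 0.0368). The Cd7 call was lost without healthy control replicate 1 (limma adjusted p = 0.0891), 2 (0.0736), 3 (0.0686), 5 (0.074) or 6 (0.0813), or RYGB replicate 1 (0.0763), 2 (0.0582), 4 (0.0606) or 5 (0.0847).

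Of the 26 tested genes of lymphocyte attraction and cytokine response, 2 rose and 1 fell in disease against healthy control, with a list median of 0.22. Ccl5, a chemokine that T and NK cells both make and follow, had 69.4, 76.6, 69.9, 63.2, 85.1 and 75.5 normalised reads in RYGB, 37.4, 28.4, 36.7, 18.97, 35.5 and 10.2 in disease, and 60.3, 47.4, 47.9, 46.6, 68.1 and 52.8 in healthy control libraries. Every disease library lay below every library of the other groups, and 5 of 6 RYGB libraries lay above every healthy control library. Ccl5 fell in disease against healthy control (-1.03 ± 0.25, limma adjusted p = 0.0374) and rose in RYGB against disease (1.48 ± 0.25, limma adjusted p = 0.00224). The first call was lost with the compared groups alone (limma adjusted p = 0.124), with same-numbered libraries of these groups as pairs (0.0764), and without healthy control replicate 1 (0.0789), 2 (0.063), 3 (0.0735), 5 (0.0874) or 6 (0.0819) or disease replicate 2 (0.0568) or 4 (0.089). Ccl21 (0.85 ± 0.19, limma adjusted p = 0.0239), a chemokine of lymphatic vessels and lymph nodes, and Cxcl11 (0.64 ± 0.15, limma adjusted p = 0.0254), a ligand of CXCR3, a receptor of activated T cells, rose in disease. The Ccl21 call was lost without any 1 of healthy control replicates 1, 2, 3 and 6 and disease replicates 2, 3 and 5 (limma adjusted p 0.0546 to 0.073), and that of Cxcl11 without any 1 of healthy control replicates 2, 3, 5 and 6 and disease replicates 3 and 4 (0.0514 to 0.0762). Ccl5 was the 1 gene of the list called in RYGB against disease, where the list median was -0.26.

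In RYGB against healthy control 2 genes of that list rose and 2 fell, with a median of -0.14. Ccl19, a ligand of the homing receptor CCR7, and Cxcl11 rose, by 1.31 ± 0.32 (limma adjusted p = 0.0291) and 0.56 ± 0.15 (limma adjusted p = 0.0353). Il2rb, the receptor chain through which interleukins 2 and 15 act on NK and memory T cells, averaged 28.4 ± 7.92 in RYGB and 59.3 ± 18.4 in healthy control, and fell, with a log2 fold change of -1.02 ± 0.27 (limma adjusted p = 0.0367). Cxcl12, a chemokine of stromal cells, fell, with a log2 fold change of -0.84 ± 0.19 (limma adjusted p = 0.0209). Each of these 4 calls depended on single libraries. Il2rb was lost without healthy control replicates 1, 2, 3, 5 or 6 or RYGB replicates 2, 4, 5 or 6 (limma adjusted p 0.057 to 0.103). Cxcl12 was lost without healthy control replicates 1, 2 or 5 or RYGB replicate 1 (limma adjusted p 0.0508 to 0.0631), Ccl19 without healthy control replicates 1, 5 or 6 or RYGB replicates 1, 2, 4, 5 or 6 (0.052 to 0.0745), and Cxcl11 without healthy control replicates 1, 2, 3, 5 or 6 or RYGB replicates 1, 2, 4 or 5 (0.0609 to 0.0847).

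**Figure D3:**
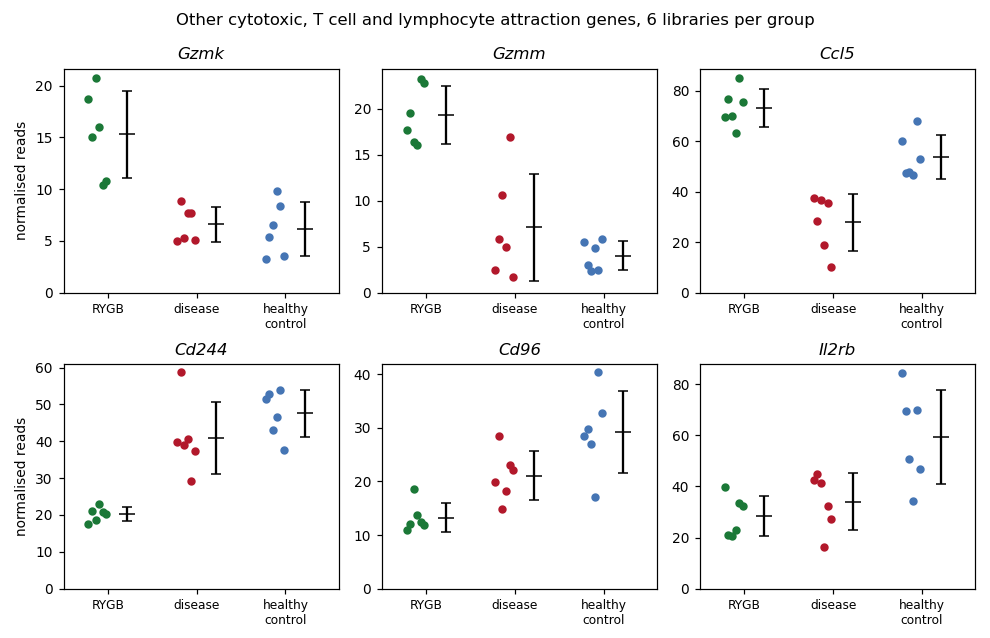
Normalised reads (vertical axes) of Gzmk, Gzmm, Ccl5, Cd244, Cd96 and Il2rb in RYGB, disease and healthy control libraries (horizontal axes). Each point is 1 library and each bar the mean ± SD of 6; the RYGB points of Gzmk lie above, and those of Cd244 below, every point of the other groups, and the disease points of Ccl5 lie below every other point.

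Markers of other cell types moved with some of these results, and their part in them was not tested. Of 4 tested red cell and platelet markers, 2 rose in RYGB against disease (Pf4 and Itga2b) and 3 in RYGB against healthy control (Alas2, Pf4 and Itga2b). The 5 measured genes of that list summed to between 991.2 and 1747 normalised reads in RYGB, 397.2 and 827.8 in disease (where Ppbp was at 0) and 514.2 and 694.2 in healthy control, so the RYGB libraries, in which Nkg7, Gzmk and Gzmm were higher than in disease, were also the highest in this list. These calls each ended when some single libraries were left out, with limma adjusted p up to 0.0658 (Pf4) and 0.0916 (Itga2b) against disease and up to 0.0929 (Pf4), 0.115 (Itga2b) and 0.0877 (Alas2) against healthy control. Of 14 tested macrophage and monocyte markers, 2 fell in RYGB against disease (Mrc1 and Clec10a) alongside Cd4, 2 rose in disease against healthy control (Clec10a and Lyz2), and in RYGB against healthy control 1 rose (Lyz2) and 1 fell (Mrc1). The 16 measured ones summed to between 7850 and 11140 in RYGB, 8923 and 11460 in disease and 5868 and 8059 in healthy control, with none at 0. Lyz2 alone averaged 6555 in RYGB, 6747 in disease and 4449 in healthy control, so it made up most of these sums. Csf1r, a marker of this list, averaged 683.3, 916 and 674.5 and was called in no comparison in limma. DESeq2 called it higher in disease than in healthy control and lower in RYGB than in disease. Of 12 tested pan leukocyte markers none was called in disease against healthy control (0 in edgeR and DESeq2, 2 higher at an unadjusted p below 0.05), Lcp1 fell in RYGB against disease and Cd52 rose in RYGB against healthy control; their sums ran from 3808 to 4399 in RYGB, 4374 to 6081 in disease and 3535 to 5266 in healthy control.

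The remaining lists differed in their share of calls. In disease against healthy control, 1 of 4 tested neutrophil markers was not called. Over all tested genes, calls in that comparison made up 0.579% (higher) and 1.03% (lower). No B cell and plasma cell marker (5 tested), dendritic cell marker (4 tested) or mast cell marker (1 tested) was called in any of the 3 comparisons in limma, edgeR or DESeq2; at an unadjusted p below 0.05 limma had 1 B cell marker higher and 1 dendritic cell marker higher in disease against healthy control, 1 B cell marker lower in RYGB against disease and 2 dendritic cell markers lower in RYGB against healthy control. Of 4 neutrophil markers S100a8 and S100a9 rose and Mmp9 fell in disease against healthy control, none was called in RYGB against disease (0 in edgeR and DESeq2, 2 lower at an unadjusted p below 0.05), and S100a8 rose and Mmp9 fell in RYGB against healthy control. Of 2 lymph node and fat markers Adipoq fell in RYGB against disease; the 5 measured ones, with Plin1 at 0 in disease and healthy control, summed to between 286.6 and 690.5 in RYGB, 597.4 and 983.8 in disease and 468.5 and 725.2 in healthy control. Of 10 kidney cortex markers Umod fell in disease against healthy control and rose in RYGB against disease. Quantile normalisation ended both Umod calls (limma adjusted p = 0.161 and 0.13). Leaving out single libraries ended those of Mmp9 in disease against healthy control (limma adjusted p up to 0.0888), S100a8 in RYGB against healthy control (up to 0.0593), and Adipoq (up to 0.0754) and Umod (up to 0.0729) in RYGB against disease.

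Across libraries, 7 relations between genes were computed on log2(value + 1), with p-values from 100000 permutations (exact within a group of 6, two-sided) and Benjamini-Hochberg adjustment over the 7. Cd4 followed Csf1r, the macrophage receptor for the growth factor CSF1, more closely than it followed Cd3e, though the difference between these relations was not tested. Cd3e rested on 77 to 192 reads per group and Csf1r on 4461 to 5674. Counting error therefore weighs more on the relation with Cd3e, and its effect was not tested. For Cd4 with Csf1r Pearson's r was 0.825 (permutation p = 5e-05, adjusted 0.000175) and Spearman's rho 0.771 (permutation p = 0.00032, adjusted 0.00112) over 18 libraries. Without the 2 libraries farthest from the median of Cd4, healthy control replicate 4 and RYGB replicate 2, r was 0.722 (permutation p = 0.00145), and on values centred on each group's mean it was 0.783 (permutation p = 0.00012, adjusted 0.00084). Within groups r was 0.618 in RYGB, 0.757 in disease and 0.907 in healthy control, none past an adjusted exact permutation p of 0.05 (0.347, 0.243 and 0.17).

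For Cd4 with Cd3e r was 0.598 (permutation p = 0.0087, adjusted 0.0203) and rho 0.529 (permutation p = 0.0252, adjusted 0.044). It was 0.579 without the 2 libraries farthest from the median of Cd4 (permutation p = 0.0196, adjusted 0.0457). The relation did not pass on group-centred values (r = 0.417, permutation p = 0.0905, adjusted 0.158) or without healthy control replicate 4 (r = 0.444, permutation p = 0.0745, adjusted 0.13). Within groups r was -0.694 in RYGB, 0.145 in disease and 0.958 in healthy control, none past an adjusted exact permutation p of 0.05 (0.347, 0.844 and 0.0778). Cd4 per Csf1r ranged from 0.54 to 0.671 in RYGB, 0.517 to 0.676 in disease and 0.609 to 0.772 in healthy control libraries, so the RYGB and disease ranges of this ratio, which has no test, overlapped.

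For Gzma with Prf1 the healthy control libraries formed a cluster of their own, so no r over all libraries is given. On group-centred values r was 0.506 (permutation p = 0.0305, adjusted 0.107) and rho 0.445 (permutation p = 0.0656, adjusted 0.23). Within the 12 fa/fa libraries r was 0.573 (permutation p = 0.0408, adjusted 0.143). Within groups r was 0.207 in RYGB, 0.544 in disease and 0.641 in healthy control (adjusted exact permutation p = 0.828, 0.549 and 0.374). Apart from the group means, then, these 2 granule genes were not shown to vary together after adjustment. For Gzma with Gzmb r was 0.521 (permutation p = 0.0238, adjusted 0.0417) and rho 0.552 (permutation p = 0.0195, adjusted 0.044), and without disease replicate 6 and healthy control replicate 1, the libraries farthest from the median of Gzma, r was 0.412 (permutation p = 0.113), so the relation no longer passed. It did not pass on group-centred values either (r = 0.434, permutation p = 0.0744, adjusted 0.158) or within the 12 fa/fa libraries (r = 0.289, permutation p = 0.366), and r was 0.59 without healthy control replicate 4 (permutation p = 0.0099, adjusted 0.0231). Cd3d with Cd3e (r = 0.198, permutation p = 0.43; rho = 0.117, permutation p = 0.641), Cd8a with Cd3e (r = -0.0659, permutation p = 0.797; rho = -0.117, permutation p = 0.645) and Cd8a with Nkg7 (r = 0.263, permutation p = 0.292; rho = 0.0485, permutation p = 0.85) did not pass before or after adjustment.

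**Figure D4:**
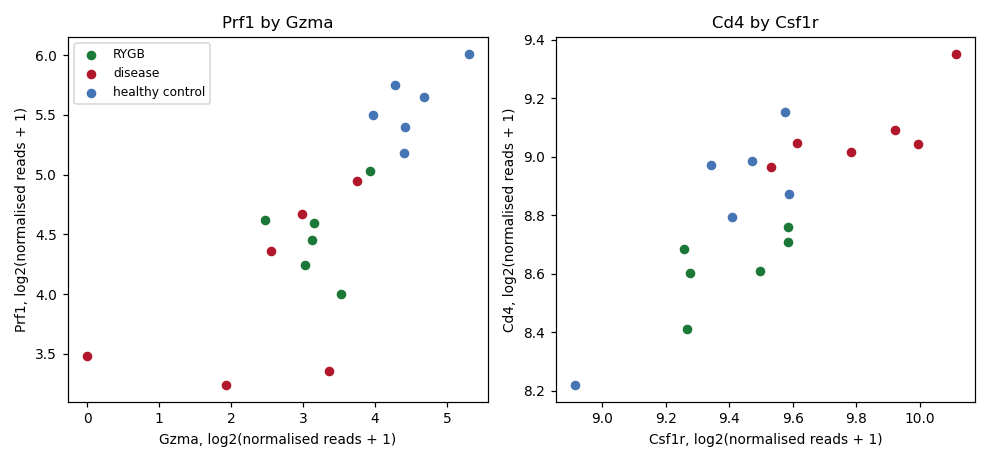
Prf1 by Gzma (left) and Cd4 by Csf1r (right), each axis in log2(normalised reads + 1), with 1 point per library coloured by group: RYGB, disease and healthy control. The healthy control points lie apart at the upper right for Prf1 by Gzma, and Cd4 rises with Csf1r (r = 0.825), with healthy control replicate 4 at the lower left.

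The genes most like Gzma and Cd3e across the 18 libraries were sought among all genes past the filter, by Spearman's rho as a description; rows with only a clone or locus name were passed over, and the libraries share their groups, so a gene that merely differs between the same groups scores highly. For Gzma they were Cckar (rho = 0.878) and Nmbr (0.853), which encode receptors of the peptides cholecystokinin and neuromedin B, Etv5 (0.822), an ETS transcription factor, Bcl2l2 (0.82), a survival gene of the BCL2 family, and Topaz1 (0.808). Prf1 had a rho of 0.816 with Gzma, and 4 of the 13981 genes compared, none a cytotoxic gene of the lists, had a higher one. For Cd3e they were Flnc (0.849), which encodes filamin C, Mfap5 (0.808), a microfibril gene, Rgs14 (0.798), Clec4a3 (0.761), a myeloid lectin, and Syn3 (0.756), which encodes synapsin III. Cd3g had a rho of 0.662 with Cd3e, and Cd3d 0.117.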

How the data were processed

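Polyadenylated RNA of flash-frozen kidney cortex was sequenced from 18 libraries made with a stranded kit, per the labels' protocols; groups and replicate numbers came from the titles. Each deposited value is a signal, a gene's read count that the authors divided by a size factor of its library, as the table's own name and values show. The submitters' processing notes name FastQC 0.11.2, MultiQC 0.9, HTSeq 0.6.1p1, DESeq2 and the build Rnor 5.0; the sources used here give neither the aligner nor the strand setting of the counting. 3 rows that name no gene were left out: in each library they take 27.62 to 43.17% (outside genes), 13.46 to 18.13% (not uniquely aligned) and a small rest (ambiguous) of the counted reads. Whole reads were recovered from the values (at least 99.9946% of a library's values within 0.01 reads). Every pair of libraries within a group differed beyond sampling noise (chi-square over degrees of freedom at least 21.43), and Spearman's rho between libraries was 0.937 to 0.994.

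Log2(value + 1) was tested in limma 3.58.1 under R 4.3.3, with the mean-variance trend on and the 3 groups fitted together (15 residual degrees of freedom). Tests were two-sided, and Benjamini-Hochberg adjustment covered every gene that reached 10 in 6 or more libraries. Adding 1 draws the fold changes of low genes towards 0, but they were not always smaller than on whole reads. For Gzma in disease against healthy control the value was -2.08 here, -2.02 in edgeR and -2.03 in DESeq2. It was -1.59 without disease replicate 6, which held no Gzma read. edgeR 4.0.16 and DESeq2 1.42.0 on the recovered reads, pseudocounts of 0.5 and 5, no filter and a minimum of 50, quantile normalisation, the compared groups alone, a replicate block and leaving out each library were alternatives. The scripts were tested on simulated data. The labels do not say what a replicate number marks, and pairing of libraries by number was not established. The deviations of same-numbered disease and healthy control libraries from their group means correlated at 0.131 to 0.325 in all 6 pairs. With RYGB the same-number values ran from -0.557 to 0.309. Over all groups, 3 of 18 libraries correlated best with their own number. Fits with same-numbered libraries as blocks or pairs are therefore alternatives only.

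All members are described. Of each other gene list, every called gene up to 4 was named, with the counts. List medians are given for some lists and comparisons only. The members and lists were chosen with earlier results of these data known.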

Additional observations from a re-analysis of the deposited data

Results flagged for a closer look

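In 27 groups of 6 libraries (9 members in 3 groups) a single library lay far from the rest of its group in 4, by the gap to its neighbour over the group's range set against Dixon's critical value for 6; chance flags about 1 in 20 groups. Gzmb in RYGB replicate 6 was 3.59 normalised reads, with the next library at 1.09. Gzmb in disease replicate 1 was 7.47, with the next at 2.11; both high values stand for 3 reads. Cd4 in disease replicate 2 was 652.6, with the next at 544.2. Cd3d in healthy control replicate 1 was 9.86, from 9 reads, with the next at 5.04.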

How the results depend on the processing

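Between disease and healthy control 225 genes were called (81 higher, 144 lower), 552 (258 and 294) between RYGB and disease and 621 (344 and 277) between RYGB and healthy control. For disease against healthy control the count was 143 with a minimum of 50, 410 in DESeq2, 628 without healthy control replicate 4 and disease replicate 6 (chosen after seeing the data) and 124 to 310 without single libraries. For RYGB against disease it was 1098 in DESeq2 and 259 to 817 without single libraries. For RYGB against healthy control it was 1442 with those groups alone, 1602 in DESeq2, 2205 without both libraries and 203 to 1501 without single libraries. edgeR on the recovered reads called 224, 629 and 846 genes. With a replicate block over all 18 libraries the counts were 158, 408 and 496. In RYGB against disease it ended the calls of Nkg7 (limma adjusted p = 0.066), Cd4 (0.0807), Gzmm (0.0546) and Gzmk (0.0583). It also ended those of Cd7 (0.0621) and Ccl19 (0.0517) in RYGB against healthy control, and of Lat (0.0944) in disease against healthy control. Of 18 libraries 3 correlated best with their own number. With same-numbered libraries of disease and healthy control alone as pairs, 252 genes were called. No member's call changed there, and Lat and Ccl5 lost theirs.

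The log2 fold change of Cd8a in disease against healthy control was 0.0238 with a pseudocount of 5, 0.0647 with quantile normalisation, 0.24 without both libraries and 0.18 in edgeR and in DESeq2, and ran from -0.21 to 0.25 without single libraries. In RYGB against healthy control that of Cd3d was 0.0477 in edgeR, 0.0228 in DESeq2 and -0.66 to 0.0794 without single libraries, and that of Cd3g -0.26 to 0.12. Ptprc in disease against healthy control was -0.0407 without both libraries. Of the relations, r of Gzma with Gzmb was 0.434 group-centred and 0.412 without the 2 farthest libraries, of Gzma with Prf1 0.506 group-centred, of Cd4 with Cd3e 0.417 group-centred and 0.444 to 0.579 without single or the farthest libraries, of Cd3d with Cd3e -0.319 group-centred, and without the 2 farthest libraries of Cd8a with Cd3e 0.294 and with Nkg7 -0.267. The cause of these changes was not tested. For the members, depth limits Gzmb and Cd3d most, with at most 83 reads over a group's 6 libraries.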
